A study of Mus musculus with 16 samples.

Results

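Hearts of CPT2H-KO mice were compared with wild type hearts over the whole table of genes, library by library. The series holds 16 mouse heart libraries, of which 10 belong to this comparison: 5 wild type and 5 CPT2H-KO. The series' design describes the CPT2H-KO genotype as loss of carnitine palmitoyltransferase 2 in cardiomyocytes only. A Myh6-driven Cre is named there for the USP30 knockout, and neither the labels nor the design text give the Cre that deleted Cpt2, the floxed exons, or the age, sex, litter and strain of the mice. The labels name no treatment, and call the tissue heart without giving chambers. Sample titles gave the groups, and values below follow the order of replicates 1 to 5 of each group. The question is which transcripts differ in heart tissue when its muscle cells cannot take long-chain acyl groups into beta-oxidation, and which of those differences hold in every heart.

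CPT2 sits on the inner mitochondrial membrane and turns long-chain acylcarnitine back into acyl-CoA, the substrate of beta-oxidation. The adult heart draws most of its energy from fatty acids, and inherited CPT2 deficiency can cause cardiomyopathy. Cardiomyocytes hold most of the RNA of a heart but are a minority of its cells, so endothelial cells, fibroblasts, pericytes and macrophages, in which Cpt2 was not targeted, also contribute to every library. In bulk tissue, fewer cells of a type and less RNA per cell cannot be told apart.

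Total RNA was sequenced after removal of ribosomal RNA, and the libraries held 55905339 to 132762776 counts in wild type and 54674422 to 131049342 in CPT2H-KO hearts. Mitochondrially encoded RNA held 57.9 to 63.0% of counts in wild type, 61.9% in CPT2H-KO replicate 2 and 67.7 to 68.8% in the other 4 CPT2H-KO hearts, which lay above every wild type heart. The ribosomal RNA mt-Rnr2 alone held 46.3 to 50.3% in wild type and 48.7 to 55.9% in CPT2H-KO hearts. With mitochondrially encoded genes left out before scaling, 4697 genes passed an edgeR adjusted p of 0.05, of which 4579 were among the 4758 that passed with them in. Values are read counts scaled to a common library size (CPM) scaled by TMM, a method that sets libraries level on the bulk of their genes, and a fold change is the log2 ratio of CPT2H-KO over wild type. Cpt2 itself (chromosome 4, 107903981 to 107923610, minus strand, GRCm38) checks the labels. It read 86.9, 89.9, 85.5, 74.0 and 53.0 CPM in wild type replicates 1 to 5 and 30.4, 42.0, 42.1, 42.8 and 44.9 CPM in CPT2H-KO replicates 1 to 5. The groups did not overlap, with CPT2H-KO replicate 1 lowest, and the log2 fold change came to -0.95 (SE 0.15, edgeR adjusted p = 9.71e-04). The share of these reads that came from untargeted cells or undeleted exons was not tested. Cardiomyocyte markers were abundant in every library, with summed levels of 70107 to 76478 CPM in wild type and 61354 to 70664 CPM in CPT2H-KO hearts. Atrial transcripts varied within and between groups. The mean log2 CPM of Myl7, Myl4 and Sln ran from 3.74 to 6.85 in wild type. In CPT2H-KO replicates 1 to 5 it was 3.37, -1.74, -1.97, -0.98 and 6.52, with replicates 1 to 4 below every wild type heart. The part of these transcripts in the results was not tested beyond a fit that takes this mean as a covariate, called the atrial covariate below. Since the mean goes partly with the group, that fit cannot tell atrial content and genotype apart. The summed level of 4 Y-linked transcripts, scaled here by library totals without TMM, was 0.337 CPM in wild type replicate 1. It was 0.0956 and 0.182 CPM in CPT2H-KO replicates 1 and 3, and 73.0 to 127 CPM in the other libraries. CPT2H-KO replicate 1 stood farthest from wild type on the first principal component, which held 54.0% of the variance, and CPT2H-KO replicate 5 stood nearest.

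Of 14123 tested genes, 33.7% passed an edgeR adjusted p of 0.05 (called below): 2360 were higher (16.7%) and 2398 lower (17%) in CPT2H-KO hearts, and the median log2 fold change of all genes was -0.0073. A change of at least 1 on the log2 scale was found for 962 of them (6.81%), 514 higher (3.64%) and 448 lower (3.17%). Most calls held in every library. Of the genes called higher, 1583 (67.1%) had all 5 CPT2H-KO libraries above the highest wild type library, 562 had 4, and 177 had 3. Of the genes called lower, 1765 (73.6%) had all 5 below the lowest wild type library, 503 had 4, and 97 had 3. Over all tested genes, called or not, the groups did not overlap for 24.7%. A gap of at least 1 on the log2 scale, meaning that the nearest libraries of the groups differed at least by a factor of about 2, was found for 173 genes (1.22%), of which 85 were higher and 88 lower. The share of genes called rose with abundance, from 24.1% of genes with an average log2 CPM below 1 to 58.2% of those at 9 and above.

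Where a single CPT2H-KO library stayed within the wild type range, it was most often replicate 5. It was the exception for 215 of the 562 genes called higher with 4 libraries beyond, against 61 to 119 for each of the others, and for 173 of the 503 called lower, against 70 to 108. On the wild type side, leaving out replicate 5 separated the groups for 222 of 777 called higher genes and 250 of 633 called lower genes whose groups overlapped, more than any other wild type library. Leaving out some 1 library separated 726 of those 777 genes and 619 of those 633. The plot of called genes by library shows both counts.

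**Figure D1:**
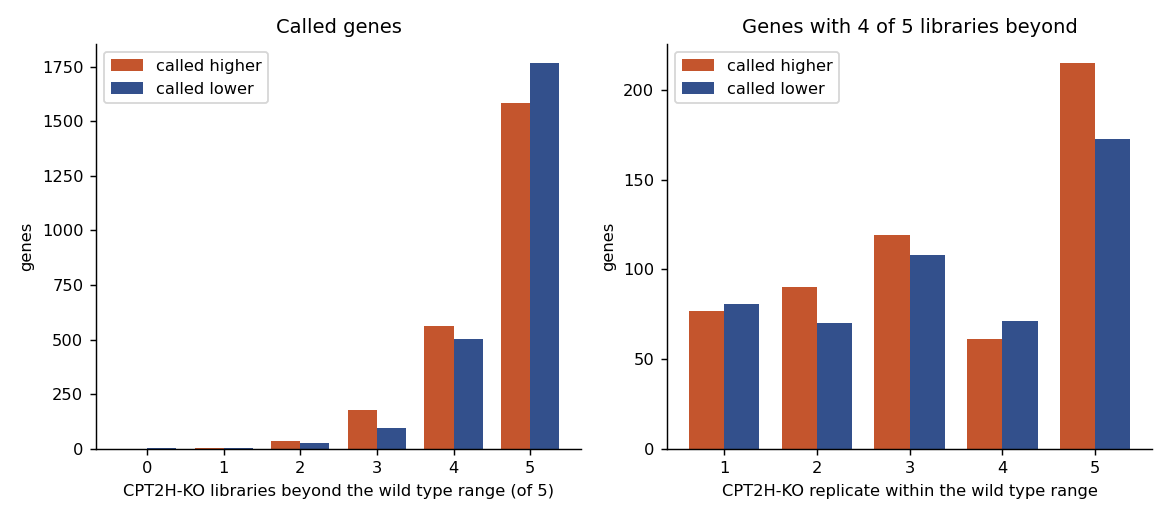
Left, genes called higher (orange) or lower (blue) in CPT2H-KO hearts, by the number of the 5 CPT2H-KO libraries that lie beyond the wild type range. Right, for genes with 4 of 5 libraries beyond, which CPT2H-KO replicate lies within the range. Bars are gene counts: 1583 genes called higher and 1765 called lower reach 5 of 5, and replicate 5 is the most frequent exception with 215 and 173 genes.

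Chromosomes of the nucleus did not stand apart: each autosome had 29.6 to 37.2% of its tested genes called, and chromosome X 30.1%. Of the 27 genes tested on the mitochondrial chromosome, 16 were higher and 0 lower. Around Cpt2, within 1 Mb on either side, 25 other genes were tested, of which 3 were called higher and 3 lower (24%). The largest change was that of Lrp8, a lipoprotein and reelin receptor gene 27141 bases from Cpt2. It read 0.581, 0.345, 0.360, 0.366 and 0.231 CPM in wild type and 15.5, 8.01, 1.36, 1.26 and 1.71 CPM in CPT2H-KO hearts, with no overlap but a wide spread, and its log2 fold change came to 3.86 (SE 0.75, edgeR adjusted p = 0.00300). Scp2, which encodes sterol carrier protein and a peroxisomal thiolase 120229 bases from Cpt2, fell by 0.44 on the log2 scale. Magoh, an exon junction protein gene that lies 16557 bases away, had a log2 fold change of -0.11 and was not called (adjusted p = 0.344); this gene was named for its position after its value was seen.

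Gaps were ranked among called genes with an average log2 CPM of 1 or more, so less abundant genes with gaps as wide are not named. The widest gaps upward in this ranking included genes with little transcript in wild type hearts. Aqp8 (chromosome 7, 123462291 to 123468004, plus strand, GRCm38), which encodes a channel for water and ammonia, read 0.604, 0.940, 0.983, 0.829 and 0.661 CPM in wild type and 9.90, 28.0, 17.8, 23.5 and 21.2 CPM in CPT2H-KO hearts. The lowest CPT2H-KO library read 9.90 CPM against a wild type maximum of 0.983 CPM, and the log2 fold change came to 4.63 (SE 0.28, edgeR adjusted p = 4.05e-06). Cpxm2 (chromosome 7, 132032687 to 132154739, minus strand), a gene for a secreted carboxypeptidase-like protein, read 1.61, 5.20, 5.52, 2.91 and 2.63 CPM in wild type and 46.1, 56.0, 46.3, 54.0 and 48.2 CPM in CPT2H-KO hearts, where the 5 libraries lay close together. Its log2 fold change came to 3.80 (SE 0.30, edgeR adjusted p = 1.50e-05). Grip1, a PDZ scaffold gene known for anchoring glutamate receptors, read 0.239, 0.250, 0.332, 0.379 and 0.330 CPM in wild type and 8.50, 6.09, 2.87, 3.71 and 3.00 CPM in CPT2H-KO hearts, a log2 fold change of 3.95, with replicates 1 to 5 all above every wild type heart.

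The 15 widest upward gaps of this ranking included metabolic enzymes. Acsf2, a mitochondrial acyl-CoA synthetase gene, read 4.25, 6.20, 5.42, 5.18 and 5.40 CPM in wild type and 50.7, 33.1, 59.3, 49.6 and 31.2 CPM in CPT2H-KO hearts, a log2 fold change of 3.08 (SE 0.19, edgeR adjusted p = 4.05e-06). Nmrk2, for nicotinamide riboside kinase of muscle, read 1.69, 1.18, 1.88, 2.46 and 1.29 CPM in wild type and 79.1, 27.0, 21.3, 15.4 and 14.5 CPM in CPT2H-KO hearts (4.19). Its highest CPT2H-KO library was well above the others, while all 5 exceeded the wild type range. Mthfd2 (3.59) and Asns (3.19), for mitochondrial folate metabolism and asparagine synthesis, and Pdk4 (2.80), for a kinase that restrains pyruvate oxidation, were the others. Haus8, for a subunit of the augmin complex of the spindle, read 6.86, 7.16, 7.69, 8.65 and 7.93 CPM in wild type and 41.2, 43.2, 48.7, 49.0 and 45.7 CPM in CPT2H-KO hearts, which is among the tightest separations at 2.57 (SE 0.0838, edgeR adjusted p = 4.18e-08). The remaining members were the stress cytokine gene Gdf15 (5.31), the retinal cadherin gene Cdh4 (4.24), the follistatin-like gene Fstl4 (3.16), the skeletal actin gene Acta1 (2.95), the GTPase-activating protein gene Arhgap9 (2.65) and Tmem116 (2.75), a membrane protein gene.

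Downward, the widest gaps of the same ranking included receptors, channels and muscle-type enzymes. Gpr22 (chromosome 12, 31706867 to 31713947, minus strand, GRCm38), an orphan G protein-coupled receptor gene, read 34.2, 33.5, 27.6, 24.0 and 17.1 CPM in wild type and 1.13, 1.29, 1.24, 0.827 and 1.04 CPM in CPT2H-KO hearts, a log2 fold change of -4.64 (SE 0.21, edgeR adjusted p = 9.85e-07). The lowest wild type heart was above the highest CPT2H-KO heart by 3.62 on the log2 scale. Aqp4, the water channel gene of astrocytes and muscle, read 13.2, 6.10, 6.65, 10.4 and 8.72 CPM in wild type and 0, 0, 0.122, 0.529 and 0.387 CPM in CPT2H-KO hearts. Its log2 fold change of -5.24 depends on how 0 counts are treated. Pla2g5, a secreted phospholipase A2 gene, read 18.5, 19.7, 21.6, 20.5 and 14.8 CPM in wild type and 0.0790, 0.314, 1.32, 2.01 and 1.72 CPM in CPT2H-KO hearts (-4.07, SE 0.51, edgeR adjusted p = 2.56e-04).

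Hcn4, the pacemaker channel gene, read 4.03, 3.89, 4.56, 5.06 and 4.03 CPM in wild type and 0.198, 0.165, 0.325, 0.285 and 0.465 CPM in CPT2H-KO hearts, a log2 fold change of -3.85 (SE 0.24, edgeR adjusted p = 4.05e-06). Casq1, for the skeletal isoform of the calcium-binding protein calsequestrin, read 13.4, 14.3, 11.8, 16.1 and 23.1 CPM in wild type and 1.66, 1.79, 1.06, 0.908 and 2.42 CPM in CPT2H-KO hearts (-3.30). Neither gene had a CPT2H-KO library in the wild type range. The other members were B3galt2 (-3.86), for a galactosyltransferase, Phkg1 (-3.48), for the catalytic subunit of muscle phosphorylase kinase, Ramp1 (-3.15), for a subunit of the CGRP receptor, Lrrc3b (-3.06), Arhgap20 (-2.81), Smim5 (-2.78), Angpt1 (-2.59), for the TIE2 ligand angiopoietin-1, Rgs2 (-2.29), a brake on Gq signalling, Rpl3l (-2.56) and Ces1d (-3.13), for a carboxylesterase. With the atrial covariate the call of Ces1d was lost (-2.89, adjusted p = 0.0535).

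**Figure D2:**
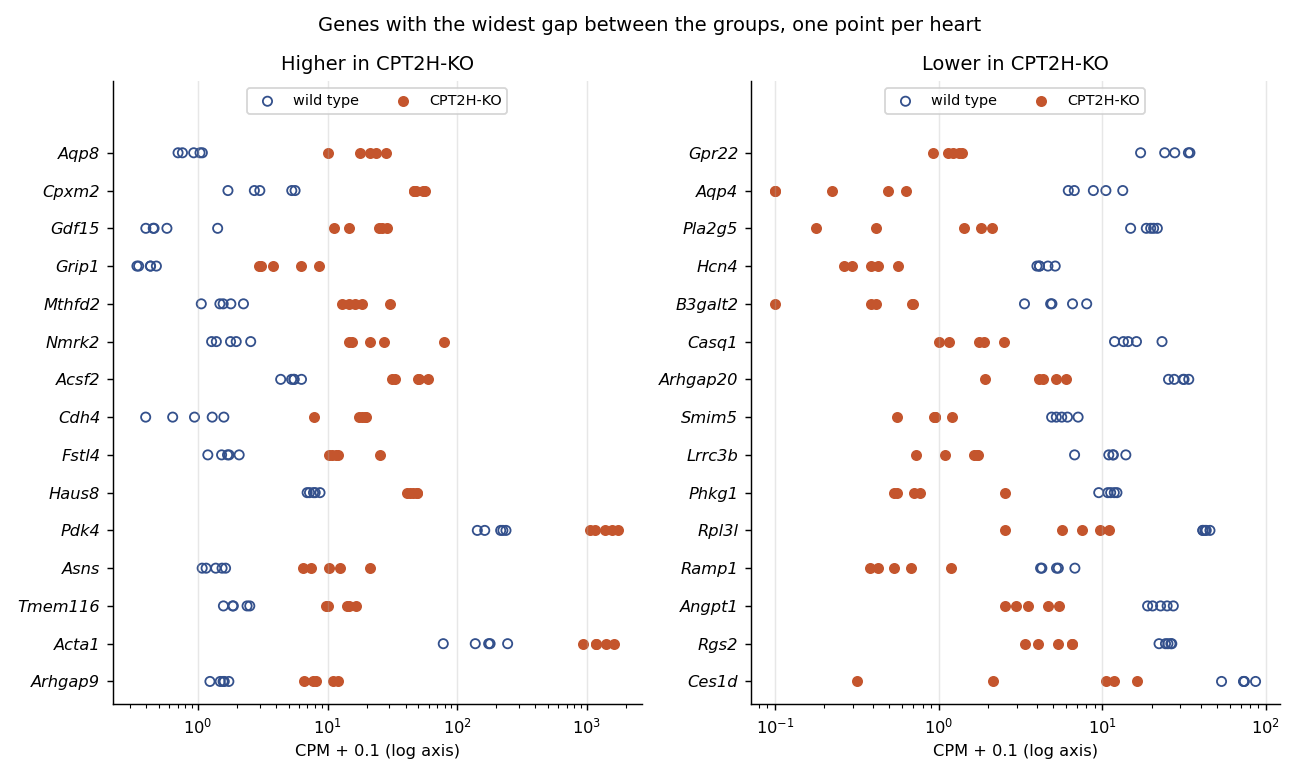
CPM + 0.1 on a log axis for the 15 genes each way with the widest gap between the groups, among called genes with an average log2 CPM of 1 or more. Each heart is 1 point (open blue for wild type, filled orange for CPT2H-KO). In each of the 30 rows the sets of 5 points do not overlap.

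Measured by the change in CPM, which favours long and abundant transcripts since CPM is not per length, the widest differences without overlap lay in transcripts of the mitochondrial genome and of the sarcomere. The complex I genes mt-Nd5, mt-Nd4 and mt-Nd2 rose by 0.97, 0.82 and 0.66 on the log2 scale. Other genes of the sarcomere and cytoskeleton rose: Xirp2, for a protein of the intercalated disc and Z-disc, went from 488 ± 65.5 to 1297 ± 739.9 CPM (SD, n = 5 each, as throughout), a log2 fold change of 1.41. Dst, for the linker dystonin, rose by 0.51, and Mybpc3, for cardiac myosin-binding protein C, by 0.47. The mechanosensitive cofactor gene Ankrd1 rose by 1.49. With library totals in place of TMM the calls of Mybpc3 (0.20, adjusted p = 0.144) and Dst (0.25, adjusted p = 0.0885) were lost.

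Among genes lower in CPM were some of the thin filament, of calcium handling and of the light chains, while the actin gene Acta1 rose as given above. Pln, for phospholamban, the inhibitor of the SERCA2 calcium pump, read 2016, 2409, 2334, 2053 and 1820.1 CPM in wild type and 757, 1029.6, 1082, 1058 and 1072 CPM in CPT2H-KO hearts, lowest in replicate 1, with a log2 fold change of -1.09 (SE 0.12, edgeR adjusted p = 9.28e-05). The pump gene Atp2a2 fell by 0.67. Tpm1 (-1.16), for tropomyosin, Tnni3 (-1.03), for cardiac troponin I, and Actc1 (-0.58), for cardiac actin, fell as well. So did Myl2 (-0.40) and Myl3 (-0.29), for ventricular light chains, Mb (-0.54), for myoglobin, and Atp5a1 (-0.33), for a subunit of ATP synthase. With the atrial covariate the call of Atp5a1 was lost (-0.26, adjusted p = 0.0988). Fhl2, for a LIM protein of the Z-disc, went from 667 ± 94.4 to 179 ± 47.0 CPM, which is a log2 fold change of -1.89 (SE 0.17, edgeR adjusted p = 3.07e-05).

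Some of the largest fold changes rested on a few hearts. Serpina3n, for an acute-phase protease inhibitor, read 1.80, 2.28, 2.60, 2.13 and 2.59 CPM in wild type and 98.2, 7.94, 2.50, 6.30 and 5.10 CPM in CPT2H-KO hearts, with replicate 1 far above the others, and the log2 fold change came to 3.39 (SE 0.94, edgeR adjusted p = 0.0175). Thbs4, for thrombospondin-4, read 2.72, 3.03, 2.83, 3.48 and 3.73 CPM in wild type and 74.8, 30.6, 2.91, 3.20 and 5.30 CPM in CPT2H-KO hearts (2.88, SE 0.84, edgeR adjusted p = 0.0221), high in replicates 1 and 2. Atf3, for a stress-induced transcription factor, read 3.17, 7.51, 5.66, 3.16 and 5.67 CPM in wild type and 33.9, 3.41, 5.78, 6.24 and 75.9 CPM in CPT2H-KO hearts (2.33, SE 0.78, edgeR adjusted p = 0.0389), high in replicates 5 and 1 only. Egr1, an immediate-early gene, read 2.76, 3.56, 3.08, 3.29 and 1.75 CPM in wild type and 25.3, 2.50, 14.2, 9.44 and 15.6 CPM in CPT2H-KO hearts, where replicate 2 stayed in the wild type range and the others exceeded it. The matrix and fibrosis genes Col12a1 (2.07), Wisp2 (2.43) and Ctgf (1.97) and the NADPH oxidase gene Nox4 (1.90) were highest in replicates 1, 2 or 5, with replicates 3 and 4 in or next to the wild type range. Rn7s1, a 7SL RNA gene with near-identical copies, had a log2 fold change of -2.13, with wild type replicate 2 at 601 CPM and the other wild type hearts at 38.7 to 77.2 CPM. Nppa, for atrial natriuretic peptide, had a log2 fold change of 2.12. It read 614, 122, 141, 172 and 180 CPM in wild type and 2622, 1144, 368, 366 and 834 CPM in CPT2H-KO hearts. The overlap of Nppa came from wild type replicate 1, and each CPT2H-KO heart was above all other wild type hearts. Besides leaving out each library in turn, fits were made with a replicate block (the replicate number as a factor) and a sex term (presence of Y-linked transcripts). The edgeR call of Serpina3n was lost with limma-voom, the replicate block or the sex term (adjusted p = 0.0918 to 0.10), that of Thbs4 without wild type replicate 1, 2 or 3 or CPT2H-KO replicate 1 (adjusted p = 0.0510 to 0.0560) and with limma-voom, the replicate block or the sex term (adjusted p = 0.0590 to 0.165), and that of Atf3 without wild type replicate 1, 2, 3, 4 or 5 or CPT2H-KO replicate 1 or 5 (adjusted p = 0.0588 to 0.125) and with limma-voom or the replicate block (adjusted p = 0.162 to 0.197). Col12a1 lost its call without wild type replicate 1, 2, 3 or 4 or CPT2H-KO replicate 1 or 2 (adjusted p = 0.0594 to 0.0872) and with limma-voom, the replicate block, the sex term or the atrial covariate (adjusted p = 0.0507 to 0.179), and Nox4 without wild type replicate 1, 3, 4 or 5 or CPT2H-KO replicate 1 or 2 (adjusted p = 0.0506 to 0.0783) and with limma-voom or the sex term (adjusted p = 0.0627 to 0.0858). The call of Nppa was lost without wild type replicate 2, 3 or 4 or CPT2H-KO replicate 1 (adjusted p = 0.0533 to 0.0566), and that of Rn7s1 without CPT2H-KO replicate 1, 2, 3, 4 or 5 (adjusted p = 0.0668 to 0.0772) and with limma-voom, the replicate block, the sex term or the atrial covariate (adjusted p = 0.0839 to 0.189). Without CPT2H-KO replicate 1 the log2 fold changes of Serpina3n, Thbs4, Col12a1 and Nox4 were 1.26, 1.73, 1.19 and 1.04. Atf3 was at 1.29 without CPT2H-KO replicate 5, and Rn7s1 at -0.58 without wild type replicate 2.

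**Figure D3:**
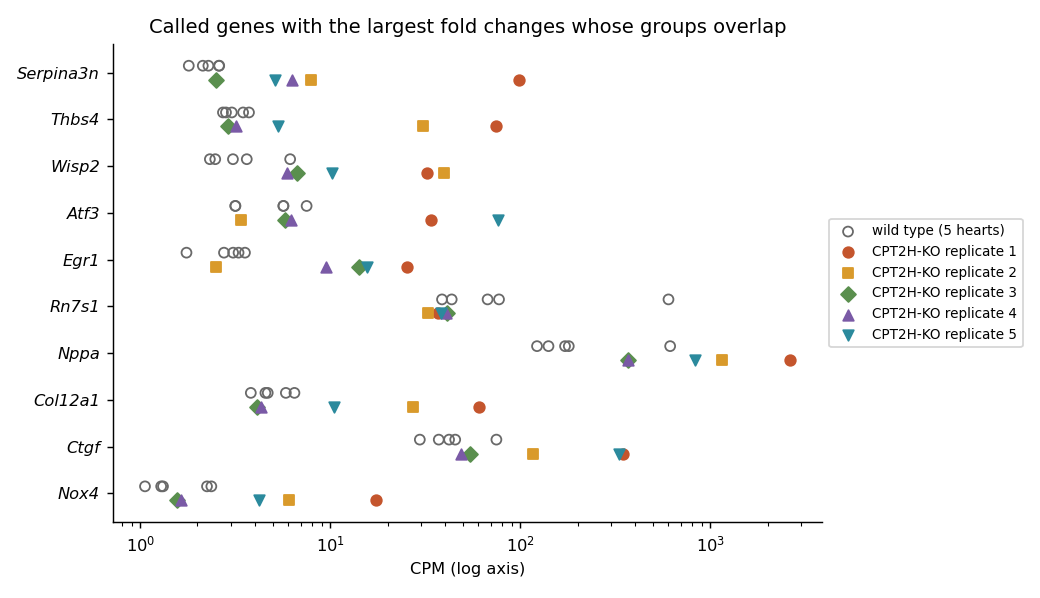
CPM on a log axis for the 10 called genes with the largest fold changes whose groups overlap. Grey open circles are the 5 wild type hearts and coloured symbols the CPT2H-KO replicates; replicate 1 is highest for Serpina3n, Thbs4, Egr1, Nppa, Col12a1, Ctgf and Nox4, and replicate 5 for Atf3.

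At the other end stood the 5 abundant genes chosen for the smallest SE within 0.1 of no change, so their steadiness is a description. Snrnp200, for a helicase of the spliceosome, read 69.2, 67.6, 69.8, 66.6 and 66.0 CPM in wild type and 71.8, 70.4, 70.3, 69.0 and 67.9 CPM in CPT2H-KO hearts, a log2 fold change of 0.0426 (SE 0.0494). Ckap5, for a microtubule polymerase, had -0.0318 (SE 0.0499), Dpp8, for a dipeptidyl peptidase, 0.0215 (SE 0.0507), Ppp1r12b, for a myosin phosphatase subunit, -0.0237 (SE 0.0518), and Anapc5, for a subunit of the anaphase-promoting complex, -0.0554 (SE 0.0522). These zeros depend on the scaling: with library totals in place of TMM the median of all genes moved to -0.27, so that changes are read relative to it, and Snrnp200 and Dpp8 had values of -0.22 and -0.24. Anapc5 (-0.32, adjusted p = 0.0222), Ckap5 (-0.29, adjusted p = 0.0319) and Ppp1r12b (-0.29, adjusted p = 0.0307) were called lower there. This scaling moved the log2 fold change of 48 of 260 genes examined by over 1.5 times. For the lists that follow, brackets give the counts higher and lower under this scaling or with the atrial covariate. They are given where either moved by over 1.5 times and by at least 2 genes, or where the larger side changed. All list counts are read beside those of all tested genes, of which 16.7% were called higher and 17% lower.

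Genes of cytosolic transfer RNA charging rose more often than they fell. Of 20 genes for cytosolic aminoacyl-tRNA synthetases, the enzymes that load amino acids onto tRNAs, 13 rose and 0 fell (9 and 3 with library totals, median log2 fold change 0.462), beside 16.7% and 17% of all tested genes. Iars, for the isoleucine enzyme, read 29.8, 30.9, 32.9, 31.0 and 31.8 CPM in wild type and 61.2, 58.6, 53.0, 50.8 and 62.4 CPM in CPT2H-KO hearts, all 5 higher, with a log2 fold change of 0.87 (SE 0.0706, edgeR adjusted p = 1.60e-05). Aars (0.99), Cars (0.99), Yars (0.81), Vars (0.71) and Mars (0.60), for alanine, cysteine, tyrosine, valine and methionine, rose without overlap. Of 17 genes for the separate mitochondrial set, 1 rose and 3 fell (0 and 7 with library totals, or 0 and 1 with the atrial covariate, median log2 fold change -0.081). No test compared both sets.

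**Figure D4:**
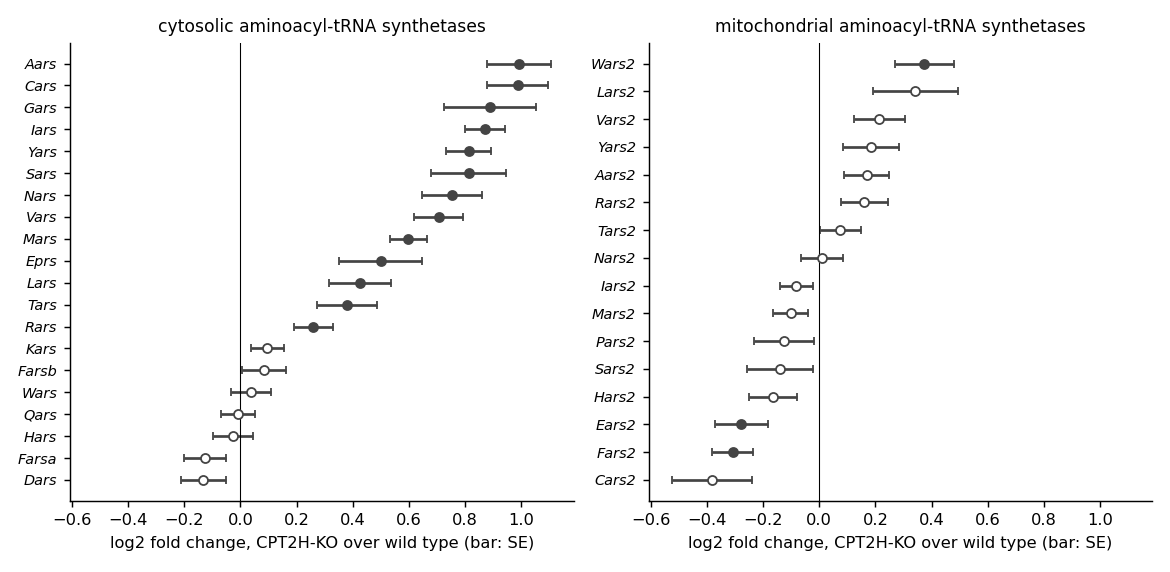
Log2 fold changes (CPT2H-KO over wild type) with SE for the 20 cytosolic and 16 of the 17 mitochondrial aminoacyl-tRNA synthetase genes tested. Filled points passed an edgeR adjusted p of 0.05: 13 cytosolic genes lie to the right of 0, and the mitochondrial genes lie on both sides with 1 filled on the right and, of the 3 called lower, 2 shown on the left.

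The transcription factor ATF4, which acts when amino acids run short or mitochondria are disturbed, binds with C/EBP partners to a composite element in promoters of amino acid genes. Promoter windows of 300 bases (250 before to 50 after the start, from RefSeq, GRCm38.p6) were searched on both strands for the letters TGATGNAA, which describe such an element. Windows of 10004 tested genes were searched, and 288 of their 12827 windows held a match (2.25%). Among cytosolic synthetase genes, 5 of 12 windows did (41.7%). They are shown because all of those genes were called higher, and Asns is shown as the member of the 15 widest upward gaps with a match. Hcn4 and Phkg1, among the 15 widest downward gaps, held a match as well. Capitals mark the match on either strand. Gars and Tars were named for holding it after their values were seen. A match is a description of these letters, not a measured binding site.
Aars (chr8:111033592-111033891, plus strand): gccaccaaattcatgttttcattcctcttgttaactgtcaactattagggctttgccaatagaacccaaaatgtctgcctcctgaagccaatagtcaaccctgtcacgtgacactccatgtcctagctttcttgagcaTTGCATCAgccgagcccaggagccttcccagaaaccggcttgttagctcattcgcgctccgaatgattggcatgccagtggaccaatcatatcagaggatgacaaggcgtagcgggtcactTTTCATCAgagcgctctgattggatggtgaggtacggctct
Gars (chr6:55037751-55038050, plus strand): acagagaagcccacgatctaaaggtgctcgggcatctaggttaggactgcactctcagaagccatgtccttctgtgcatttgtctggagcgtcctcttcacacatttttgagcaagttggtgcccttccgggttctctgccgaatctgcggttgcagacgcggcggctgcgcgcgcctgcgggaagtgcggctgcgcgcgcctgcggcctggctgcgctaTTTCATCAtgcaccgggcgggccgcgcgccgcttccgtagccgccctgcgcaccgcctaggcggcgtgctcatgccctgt
Iars (chr13:49681880-49682179, plus strand): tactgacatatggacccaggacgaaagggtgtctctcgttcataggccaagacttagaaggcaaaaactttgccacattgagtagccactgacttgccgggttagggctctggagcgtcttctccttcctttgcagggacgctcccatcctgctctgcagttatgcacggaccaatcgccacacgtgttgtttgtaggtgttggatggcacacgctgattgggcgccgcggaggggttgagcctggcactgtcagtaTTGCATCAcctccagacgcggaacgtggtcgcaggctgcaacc
Tars (chr15:11399609-11399908, minus strand): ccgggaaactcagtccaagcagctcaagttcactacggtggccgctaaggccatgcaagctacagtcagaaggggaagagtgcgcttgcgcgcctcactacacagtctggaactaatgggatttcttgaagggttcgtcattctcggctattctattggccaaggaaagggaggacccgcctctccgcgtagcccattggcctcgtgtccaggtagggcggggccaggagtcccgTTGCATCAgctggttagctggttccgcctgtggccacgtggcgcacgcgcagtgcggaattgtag
Yars (chr4:129189653-129189952, plus strand): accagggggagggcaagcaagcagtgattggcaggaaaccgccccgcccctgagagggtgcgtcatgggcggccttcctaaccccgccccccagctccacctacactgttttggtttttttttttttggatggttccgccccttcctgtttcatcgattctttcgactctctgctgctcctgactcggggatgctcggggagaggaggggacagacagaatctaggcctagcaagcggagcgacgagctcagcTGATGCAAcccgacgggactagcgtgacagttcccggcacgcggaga
Asns (chr6:7693160-7693459, minus strand): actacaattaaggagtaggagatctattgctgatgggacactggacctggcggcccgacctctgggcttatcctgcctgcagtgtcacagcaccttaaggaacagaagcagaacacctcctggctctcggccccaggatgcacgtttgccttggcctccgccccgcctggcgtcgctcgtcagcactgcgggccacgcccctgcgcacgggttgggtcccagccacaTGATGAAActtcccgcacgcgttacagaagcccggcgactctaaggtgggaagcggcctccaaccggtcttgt

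Gars, for the glycine enzyme, and Tars, for the threonine enzyme, rose by 0.89 and 0.38 on the log2 scale. The call of Tars was lost with library totals (0.11, adjusted p = 0.511), and its value with the atrial covariate was 0.60. Across the wider table the motif did not follow direction: 2.51% of windows of genes called higher and 1.94% of those called lower held it. Of 65 windows of genes with an upward gap of at least 1, 2 held it, beside 6 of 80 windows with a downward gap of at least 1 (7.5%). It was in 0 of 15 windows of mitochondrial synthetase genes and in 0 of 16 windows of serine, glycine and folate enzyme genes. Of 31 windows of amino acid transporter genes, 3 held it (9.68%), those of Slc1a4, called higher, and Slc7a7, not called. The E-box CACGTG was in 9.71% of all windows, in 11.9% of those of genes called higher and in 8.71% of those of genes called lower. Among cytosolic synthetase genes it was in 4 of 12 windows (33.3%), so TGATGNAA was not the only motif frequent there. The windows are short and tested genes without a window or on chromosome 18 were not searched.

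Amino acid transporters and enzymes of serine and folate metabolism changed in both directions. Of 25 amino acid transporter genes, 10 rose and 2 fell (5 and 7 with library totals, median log2 fold change 0.413). Slc7a5, for the exchanger LAT1 of large neutral amino acids, read 1.61, 1.51, 1.27, 1.62 and 1.95 CPM in wild type and 15.9, 7.55, 5.27, 5.19 and 8.87 CPM in CPT2H-KO hearts, a log2 fold change of 2.43 (SE 0.30, edgeR adjusted p = 2.07e-04) with no overlap. The glutamine and alanine transporter genes Slc38a1 (1.19) and Slc38a2 (0.95) and the glutamate and serine carriers Slc1a3 (0.95) and Slc1a4 (0.87) rose. Of 17 serine, glycine and folate enzyme genes, 6 rose and 5 fell (4 and 6 with library totals, or 6 and 3 with the atrial covariate, median log2 fold change 0.201). Phgdh (2.21), the entry enzyme of serine synthesis, Shmt1 (1.69), for serine hydroxymethyltransferase, and Mthfd2 (3.59) rose. Mtr (-1.33), for methionine synthase, and Aldh1l1 (-1.45), for formyltetrahydrofolate dehydrogenase, fell without overlap.

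Genes of protein folding in the endoplasmic reticulum fell more often than they rose. Of 23 genes of its unfolded protein response and folding machinery, 2 rose and 12 fell (2 and 6 with the atrial covariate, median log2 fold change -0.259). Hspa5, for the chaperone BiP, read 193, 188, 282, 215 and 179 CPM in wild type and 128, 122, 121, 127 and 148 CPM in CPT2H-KO hearts, a log2 fold change of -0.71 (SE 0.12, edgeR adjusted p = 0.00152) with no overlap. Calr (-0.69) and Canx (-0.42), for the lectin chaperones calreticulin and calnexin, and Pdia6 (-0.64), for a disulfide isomerase, fell. Ern1, for the stress sensor IRE1, rose by 1.07. Of 26 cytosolic heat shock genes, 5 rose and 1 fell (0 and 6 with library totals, median log2 fold change 0.154). Hspb2, for a small heat shock protein of muscle, was the member that fell (-0.81). Of 18 p53 target genes, 7 rose and 2 fell (median log2 fold change 0.426). Zmat3 (1.04), Tnfrsf10b (1.45), for a death receptor, and Sesn2 (1.28), for a brake on mTORC1, rose, and Ccng1, for cyclin G1, fell by 0.68.

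Nuclear genes for mitochondrial proteins changed in both directions. Of 23 genes for mitochondrial chaperones and proteases, 9 rose and 2 fell (4 and 6 with library totals, median log2 fold change 0.099). Grpel2, a nucleotide exchange factor gene of mitochondrial HSP70, read 8.94, 9.56, 9.14, 8.63 and 9.17 CPM in wild type and 20.5, 15.4, 17.8, 17.7 and 18.2 CPM in CPT2H-KO hearts, a log2 fold change of 0.98 (SE 0.0773, edgeR adjusted p = 1.50e-05). The protease genes Afg3l2 (0.66), Afg3l1 (0.73) and Lonp1 (0.65) rose. Of 77 mitochondrial ribosomal protein genes, 7 rose and 31 fell (0 and 50 with library totals, or 5 and 9 with the atrial covariate, median log2 fold change -0.180). Mrpl42 (-0.72) and Mrps21 (-0.48) fell, and Mrps2 rose by 0.58, a call lost with library totals in place of TMM (0.32, adjusted p = 0.0530).

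Of 17 genes of mitochondrial fusion, fission and cristae shape, 1 rose and 8 fell (0 and 13 with library totals, or 1 and 5 with the atrial covariate, median log2 fold change -0.170). Minos1 (-0.44), Apoo (-0.47) and Apool (-0.43), for subunits of the MICOS complex that shapes cristae, fell, as did the fission genes Mief2 (-0.53) and Mtfp1 (-0.64). Of 30 import genes, 3 rose and 9 fell (0 and 17 with library totals, or 3 and 3 with the atrial covariate, median log2 fold change -0.103). The small carriers of the inner membrane were as follows: of 38 SLC25 genes, 4 rose and 5 fell (1 and 14 with library totals, median log2 fold change -0.066). Their shares, 10.5% and 13.2%, were below those of all tested genes (16.7% and 17%). Slc25a29 (-1.51), for a carrier of basic amino acids, and Slc25a38 (-0.69), for the glycine carrier of haem synthesis, fell, and Slc25a22 (1.09), for a glutamate carrier, rose.

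TCA cycle and glycolysis genes fell more often than they rose. Of 18 TCA cycle genes, 0 rose and 8 fell (0 and 14 with library totals, or 0 and 3 with the atrial covariate, median log2 fold change -0.198). Sdhc (-0.65) and Sdhd (-0.37), for the membrane anchors of succinate dehydrogenase, and Fh1 (-0.47), for fumarase, fell without overlap. Of 25 glycolysis and glucose transport genes, 4 rose and 7 fell (1 and 11 with library totals, or 2 and 5 with the atrial covariate, median log2 fold change -0.013). The share that rose, 16%, was near that of all tested genes (16.7%), and the share that fell was 28%, beside 17%. The insulin-responsive glucose transporter gene Slc2a4 (-0.89), the monocarboxylate transporter gene Slc16a1 (-0.74), the muscle enolase gene Eno3 (-0.68) and Pfkfb1 (-1.98), for an enzyme that makes an activator of glycolysis, fell. Of 20 glycogen genes, 2 rose and 5 fell (2 and 11 with library totals, or 4 and 4 with the atrial covariate, median log2 fold change -0.084). Ugp2, for the enzyme that makes UDP-glucose, rose by 1.20. Of 7 genes of ketone body enzymes and carriers, 3 rose and 2 fell (2 and 4 with library totals, or 1 and 2 with the atrial covariate, median log2 fold change -0.135). Oxct1, for the enzyme that spends ketone bodies, was among those that fell, by 0.42. In the phosphocreatine system the creatine transporter gene Slc6a8 rose by 0.88 and Ak4, for a mitochondrial adenylate kinase, fell by 1.08. Beside Nmrk2, the NAD genes Nampt (-0.93), for the salvage enzyme, and Nadk2 (-0.69), for the mitochondrial NAD kinase, fell.

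Genes of nucleotide, polyamine and glutathione metabolism went both ways. Of 25 nucleotide synthesis genes, 9 rose and 4 fell (3 and 10 with library totals, or 6 and 1 with the atrial covariate, median log2 fold change 0.299). Uck2, for uridine-cytidine kinase, rose by 1.59 and Prps2, for phosphoribosyl pyrophosphate synthetase, by 0.71, while Ppat, for the entry enzyme of purine synthesis, fell by 0.65. Polyamine genes split, with Odc1, for ornithine decarboxylase, at 0.75, and Amd1, for the next committed step, at -1.18. Of 24 glutathione and NRF2 target genes, 6 rose and 5 fell (3 and 8 with library totals, or 8 and 0 with the atrial covariate, median log2 fold change 0.178). Hmox1 (0.96), for haem oxygenase-1, Txnrd1 (0.59), for thioredoxin reductase, and Chac1 (1.36), for an enzyme that degrades glutathione, rose.

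Lipid genes outside beta-oxidation changed in both directions. Of 21 sphingolipid genes, 8 rose and 3 fell (4 and 6 with library totals, median log2 fold change 0.201). Cers6, for a ceramide synthase, went from 4.87 ± 0.676 to 12.6 ± 0.797 CPM (1.37, SE 0.0992, edgeR adjusted p = 1.00e-05), Sgpl1, for sphingosine-1-phosphate lyase, rose by 1.71 and Ugcg, for glucosylceramide synthase, by 0.97, while Cers5 fell by 0.47. Of 22 lipid droplet and lipolysis genes, 7 rose and 4 fell (3 and 9 with library totals, median log2 fold change 0.072). G0s2, for an inhibitor of adipose triglyceride lipase, fell by 1.61, and the droplet-forming genes Fitm1 and Fitm2 by 1.21 and 0.73. Gpam, for the entry enzyme of glycerolipid synthesis, rose by 0.68 and Cidea, for a droplet fusion protein, by 0.73. Of 13 uptake genes, 4 rose and 0 fell (4 and 5 with library totals, median log2 fold change 0.021). Angptl4 (2.52), for an inhibitor of lipoprotein lipase, and Lrp1 (0.79), for a lipoprotein receptor, rose.

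Enzymes that form or cleave acyl-CoA changed as well. Of 11 acyl-CoA thioesterase genes, whose products release free fatty acids from acyl-CoA, 5 rose and 0 fell (4 and 2 with library totals, median log2 fold change 0.211). Acot3, Acot2 and Acot1 rose by 1.97, 1.44 and 1.27, but these neighbouring paralogs are nearly identical in places and their counts are uncertain. Of 11 acyl-CoA synthetase genes, 3 rose and 4 fell (3 and 2 with the atrial covariate, median log2 fold change -0.056), where Acsl6 (-1.59) fell and Acsl3 (1.06) rose beside Acsf2. Of 19 cardiolipin and phospholipid genes, 8 rose and 3 fell (1 and 4 with library totals, median log2 fold change 0.095). Lclat1, for a cardiolipin acyltransferase, fell by 1.17 and Cds1, for a CDP-diacylglycerol synthase, rose by 1.93. The peroxisomal fatty acid transporter gene Abcd2 fell by 1.67.

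Potassium channel genes fell more often than they rose. Of 33 potassium channel genes, 4 rose and 16 fell (2 and 17 with library totals, or 2 and 13 with the atrial covariate, median log2 fold change -0.427), which leaves 48.5% lower beside 17% of all genes. Kcnj2, for an inward rectifier channel that sets the resting potential, read 49.5, 37.0, 31.7, 41.2 and 24.7 CPM in wild type and 5.97, 11.3, 11.9, 13.3 and 4.56 CPM in CPT2H-KO hearts, a log2 fold change of -1.97 (SE 0.30, edgeR adjusted p = 7.24e-04) with no overlap. Kcnh2 (-1.08), for the repolarising hERG channel, Kcnj5 (-1.15), for a subunit of the acetylcholine-activated channel, and Kcng2 (-0.59) fell. Of 30 sodium, calcium and other cation channel genes, 7 rose and 7 fell (6 and 12 with library totals, median log2 fold change -0.137). Cacna1g (-1.15), for a T-type calcium channel, and P2rx6 (-1.66), for a purinergic channel, fell with Hcn4, while the mechanosensitive channel gene Piezo1 (1.74) and Trpv2 (0.80) rose.

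Calcium handling and adrenergic genes also fell more often than they rose. Of 39 genes of the sarcoplasmic reticulum and calcium handling, 4 rose and 14 fell (1 and 23 with library totals, or 2 and 10 with the atrial covariate, median log2 fold change -0.243). Cacna2d1 (-1.03), for an accessory subunit of the L-type channel, Trdn (-0.79), for the junctional protein triadin, and Camk2g (-0.85), for a calmodulin kinase, fell, and S100a1, for a calcium sensor of the reticulum, rose by 0.79. Of 40 adrenergic and cAMP genes, 6 rose and 12 fell (2 and 18 with library totals, median log2 fold change -0.009). Adrb1, for the main beta-adrenergic receptor of the heart, read 6.60, 6.43, 5.44, 5.64 and 3.87 CPM in wild type and 2.47, 3.06, 2.95, 3.08 and 2.13 CPM in CPT2H-KO hearts, a log2 fold change of -1.04 (SE 0.16, edgeR adjusted p = 7.69e-04). Adra1b (-1.56), for an alpha-adrenergic receptor, Adcy9 (-0.74), for an adenylyl cyclase, Rgs6 (-1.56) and Ppp1r1a (-2.23), for a phosphatase inhibitor activated by protein kinase A, fell.

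Among other G protein-coupled receptors, 7 of 39 genes rose and 10 fell (2 and 17 with library totals, median log2 fold change -0.146). Chrm2, for the muscarinic receptor of the heart, fell by 2.25 and Mrgprh by 2.49, while Ptger3, for a prostaglandin E receptor, rose by 2.59 and Ednrb, for an endothelin receptor, by 1.25. Beside Aqp8 and Aqp4, the chloride channel gene Clcn1, known from skeletal muscle, fell by 2.65 and the volume-regulated channel gene Lrrc8d rose by 0.94. Of 41 solute carrier genes outside the groups above, 8 rose and 13 fell (1 and 19 with library totals, median log2 fold change -0.135). Slc41a1 (-1.02), for a magnesium transporter, Slc46a3 (-1.18), Slc44a2 (-0.96), for a choline transporter, and Slc37a4 (-0.58), for the glucose 6-phosphate translocase, fell, and the thiamine transporter gene Slc19a2 rose by 0.80.

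Genes of contractile architecture moved in both directions. Of 33 Z-disc and stretch sensor genes, 10 rose and 8 fell (6 and 11 with library totals, or 10 and 3 with the atrial covariate, median log2 fold change 0.032). Tcap (-2.40), for telethonin, and Cmya5 (-0.82), for myospryn, fell with Fhl2, while Flnc (1.05), for filamin C, Synpo (0.95), for synaptopodin, and Mypn (0.60), for myopalladin, rose. Of 27 dystrophin complex and costamere genes, 5 rose and 9 fell (2 and 14 with library totals, or 3 and 8 with the atrial covariate, median log2 fold change -0.076). The sarcoglycan gene Sgca (-0.61), the laminin receptor gene Itga7 (-0.72), Itgb1bp2 (-1.32), for melusin, and Dtna (-0.59), for dystrobrevin, fell, and the syntrophin gene Sntb1 rose by 1.79. Of 23 intercalated disc and junction genes, 2 rose and 9 fell (2 and 14 with library totals, or 4 and 3 with the atrial covariate, median log2 fold change -0.150). Cdh2 (-0.51), for the N-cadherin of cardiac junctions, and Ctnna1 (-0.46), for a catenin of the same junctions, fell, whereas the cadherin gene Cdh4 and Xirp2 were the risers.

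Of 14 intermediate filament genes, 5 rose and 1 fell (2 and 3 with library totals, median log2 fold change 0.303). Krt18, for an epithelial keratin, read 0.581, 0.440, 0.602, 0.591 and 0.463 CPM in wild type and 42.7, 8.51, 2.36, 2.94 and 4.17 CPM in CPT2H-KO hearts, a log2 fold change of 4.47 (SE 0.83, edgeR adjusted p = 0.00239). All 5 CPT2H-KO hearts were above the wild type range, across a wide spread. Krt8, the gene for its partner keratin, had a log2 fold change of 2.23 (SE 0.66, edgeR adjusted p = 0.0237), with a call that was lost without CPT2H-KO replicate 1 (1.32, adjusted p = 0.0515) or wild type replicate 1 (2.17, adjusted p = 0.0545), with the replicate block (1.77, adjusted p = 0.0883), with the sex term (1.91, adjusted p = 0.0606) and in limma-voom (1.62, adjusted p = 0.0805). Krt8 and Krt18 are also markers of mesothelium, whose other listed genes were not called. Of 20 cardiomyocyte markers in all, 13 fell and 1 rose.

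Regulators of the cardiac programme changed in both directions. Of 33 cardiac transcription factor genes, 7 rose and 10 fell (2 and 17 with library totals, or 5 and 4 with the atrial covariate, median log2 fold change -0.150). Klf15 (-1.04), for a factor of metabolic and glucocorticoid rhythms, Hopx (-1.42), for a homeodomain cofactor, and Irx2 (-1.77) fell, and Tead1 (0.86) and Mef2d (0.68) rose. Of 27 genes of the PGC-1, ERR, PPAR and related nuclear receptor group, 6 rose and 5 fell (1 and 9 with library totals, or 4 and 5 with the atrial covariate, median log2 fold change 0.104). That is 22.2% and 18.5%, beside 16.7% and 17% of all tested genes. Nr3c2 (-1.59), for the mineralocorticoid receptor, Thrb (-0.75), for a thyroid hormone receptor, and Rxrg (-0.64) fell, and Pprc1 (0.87), for a PGC-1-related coactivator, rose. Of 18 YAP and TEAD target genes, 6 rose and 1 fell (4 and 5 with library totals, median log2 fold change 0.210). Cyr61 (1.74), for a matricellular protein, and Tgfb2 (1.36) rose and Arhgef17 (-1.25) fell. Rtl1, an imprinted gene derived from a retrotransposon and expressed from the paternal allele, overlaps an antisense RNA whose reads cannot be told apart here. It went from 0.249 ± 0.203 to 2.15 ± 0.865 CPM, which is a log2 fold change of 3.12 (SE 0.47, edgeR adjusted p = 7.50e-04), with no overlap. Rbfox1, for a splicing regulator of muscle and brain, fell by 2.30.

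Growth factor and morphogen genes changed in both directions. Of 44 TGF-beta and BMP genes, 11 rose and 5 fell (7 and 11 with library totals, median log2 fold change 0.195). Bmp7, for a bone morphogenetic protein, read 0.672, 0.773, 1.06, 1.11 and 0.859 CPM in wild type and 7.43, 4.02, 5.15, 5.60 and 4.06 CPM in CPT2H-KO hearts, a log2 fold change of 2.54 (SE 0.20, edgeR adjusted p = 1.59e-05). Gdf6, for another ligand of the family, rose by 2.71 and Ltbp3, for a latency protein, by 0.93, while Bmper (-1.65), Ltbp1 (-1.06) and Tgfbr3 (-0.61) fell. Of 59 growth factor and receptor genes, 14 rose and 8 fell (9 and 14 with library totals, median log2 fold change 0.155). Met, for the receptor of hepatocyte growth factor, rose by 1.78. Fgf16 (-1.65) and Fgf2 (-1.27), for fibroblast growth factors, and Ghr (-0.94), for the growth hormone receptor, fell with Angpt1.

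Of 21 feedback genes of the RAS and ERK pathway, 10 rose and 3 fell (3 and 4 with library totals, or 6 and 2 with the atrial covariate, median log2 fold change 0.383). Dusp4, for a nuclear phosphatase of MAP kinases, read 0.900, 0.785, 0.699, 0.643 and 0.677 CPM in wild type and 26.1, 6.67, 4.01, 5.23 and 3.08 CPM in CPT2H-KO hearts, a log2 fold change of 3.60 (SE 0.58, edgeR adjusted p = 0.00106), with no overlap and a wide spread among CPT2H-KO hearts. Spry4, for a Sprouty inhibitor, rose by 1.13. Of 50 axon guidance genes, 9 rose and 9 fell (4 and 16 with library totals, median log2 fold change 0.124). This is 18% each way, near the shares of all tested genes (16.7% and 17%). Sema3f (0.80), Ntn1 (0.69) and Plxnb2 (0.65) rose and Sema6c (-1.33), Epha7 (-0.72) and Rgma (-0.99) fell. Of 42 Wnt and Notch genes, 10 rose and 7 fell (3 and 9 with library totals, or 5 and 1 with the atrial covariate, median log2 fold change -0.004).

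Matrix genes changed beside fibroblast markers. Of 25 basement membrane genes, 12 rose and 2 fell (7 and 4 with library totals, or 5 and 3 with the atrial covariate, median log2 fold change 0.293). Lamc3, for a laminin gamma chain, read 1.32, 1.18, 0.699, 0.791 and 0.975 CPM in wild type and 19.6, 7.31, 4.98, 4.41 and 7.39 CPM in CPT2H-KO hearts, a log2 fold change of 3.15 (SE 0.41, edgeR adjusted p = 3.26e-04). The collagen genes Col4a2 (1.00) and Col4a4 (1.02) rose and Lamb3 (-1.47) fell. Of 24 integrin genes, 9 rose and 1 fell (2 and 4 with library totals, or 3 and 1 with the atrial covariate, median log2 fold change 0.277). Of 43 metalloproteinase and inhibitor genes, 12 rose and 7 fell (9 and 12 with library totals, or 11 and 4 with the atrial covariate, median log2 fold change 0.238). Adamtsl2 (2.15) and Adam12 (1.89) rose and Adamts7 (-1.36), Adam22 (-0.98) and Adamtsl4 (-0.83) fell. Of 20 fibroblast markers, 6 rose and 1 fell (5 and 4 with library totals, median log2 fold change 0.312), and their summed level was 1510.4 to 2111 CPM in wild type and 1819 to 3215 CPM in CPT2H-KO hearts, highest in replicate 1. None of the 20 was at 0. Cilp (2.63), Postn (1.65) and Col1a1 (1.41) rose without overlap. The part of fibroblast content in the matrix counts was not tested.

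Few endothelial and macrophage markers were called, while lymphatic and endocardial markers rose more often than they fell. Of 20 endothelial markers, 1 rose and 1 fell (1 and 7 with library totals, or 3 and 0 with the atrial covariate, median log2 fold change 0.055), at summed levels of 879 to 988 CPM in wild type and 875 to 1130.0 CPM in CPT2H-KO hearts. Of 11 lymphatic and endocardial markers, 4 rose and 1 fell (2 and 1 with library totals, median log2 fold change 0.417). Their summed levels were 95.3 to 133 CPM in wild type and 126 to 168 CPM in CPT2H-KO hearts. Of 20 macrophage markers, 3 rose and 2 fell (2 and 4 with library totals, or 0 and 0 with the atrial covariate, median log2 fold change -0.088), at summed levels of 201 to 261 CPM in wild type and 164 to 269 CPM in CPT2H-KO hearts. Spp1, for osteopontin, read 0.547, 0.333, 0.180, 0.315 and 0.446 CPM in wild type and 3.00, 1.26, 0.976, 7.04 and 0.775 CPM in CPT2H-KO hearts (2.87, SE 0.62, edgeR adjusted p = 0.00521), a call lost with the atrial covariate (2.25, adjusted p = 0.0677). Immune lists had few calls: 2 higher and 2 lower of 31 interferon response genes (0 and 4 with library totals, or 0 and 0 with the atrial covariate), and 0 and 1 of 20 complement genes (0 and 3 with library totals), where Cd59a, for a membrane inhibitor of complement, fell by 1.13. Of 39 chemokine, cytokine and receptor genes, 4 rose and 5 fell (2 and 10 with library totals, median log2 fold change 0.036), among them Tnfrsf12a (1.65), for the TWEAK receptor, Cx3cl1 (1.38), Il15 (-1.84) and Lifr (-0.88).

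Of 18 pericyte and smooth muscle markers, 2 rose and 5 fell (0 and 10 with library totals, median log2 fold change -0.220). Their summed levels overlapped, at 1552 to 1706 CPM in wild type and 1476 to 1800 CPM in CPT2H-KO hearts. Among those that fell were Acta2 (-1.75), for smooth muscle actin, and the channel genes Abcc9 (-0.75) and Kcnj8 (-0.54), for subunits of an ATP-sensitive potassium channel. Dbh, for the enzyme that makes noradrenaline, read 2.56, 1.26, 1.96, 2.46 and 1.37 CPM in wild type and 0.0988, 0.0331, 0.183, 0.108 and 0.327 CPM in CPT2H-KO hearts, a log2 fold change of -3.57 (SE 0.43, edgeR adjusted p = 1.98e-04) with no overlap. It was the member of 11 Schwann and neuronal markers that fell, while 1 rose (0 rose and 3 fell with library totals). Of 9 adipocyte and 8 red blood cell markers, 0 were called by edgeR (2 adipocyte and 1 red blood cell marker fell with library totals). Clock genes had few calls: 0 of 22 rose and 1 fell (0 and 4 with library totals, or 1 and 0 with the atrial covariate), although the labels give no hour of tissue collection.

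Protein synthesis and breakdown genes of muscle moved in both directions. Rpl3l, the ribosomal protein gene used in adult heart and skeletal muscle, read 41.1, 43.1, 45.4, 42.3 and 41.1 CPM in wild type and 2.45, 5.56, 10.9, 9.57 and 7.46 CPM in CPT2H-KO hearts, a log2 fold change of -2.56 (SE 0.30, edgeR adjusted p = 1.85e-04). Rpl3, the paralog used in other tissues, read 68.7, 52.5, 57.6, 61.8 and 59.7 CPM in wild type and 141, 109.6, 92.0, 90.8 and 117 CPM in CPT2H-KO hearts, a log2 fold change of 0.87 (SE 0.12, edgeR adjusted p = 5.18e-04). Neither overlapped between groups, and reads shared between these paralogs could not be checked in the counts. Of 79 cytosolic ribosomal protein genes, 4 rose and 8 fell (1 and 45 with library totals, or 5 and 1 with the atrial covariate, median log2 fold change -0.069). Of 25 muscle ubiquitin ligase and atrophy genes, 4 rose and 10 fell (2 and 14 with library totals, or 2 and 10 with the atrial covariate, median log2 fold change -0.261). The Kelch adaptor genes Klhl33 (-2.54), Klhl41 (-1.48), Klhl38 (-1.39) and Klhl40 (-0.76) fell, with Asb11 (-0.68), and Fbxo40, for an adaptor that targets the insulin receptor substrate, rose by 0.59. Of 37 proteasome genes, 5 rose and 9 fell (2 and 23 with library totals, or 4 and 3 with the atrial covariate, median log2 fold change -0.071), with Psmb10 (0.76), an immunoproteasome subunit gene, and Psmd11 (0.65) higher. Of 41 lysosome and autophagy genes, 9 rose and 8 fell (2 and 17 with library totals, or 6 and 7 with the atrial covariate, median log2 fold change 0.038). These are 22% and 19.5%, beside 16.7% and 17% of all tested genes. Ctsl, for cathepsin L, rose by 1.17, and Map1lc3b and Map1lc3a, for LC3 proteins, fell by 0.50 and 0.42.

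**Figure D5:**
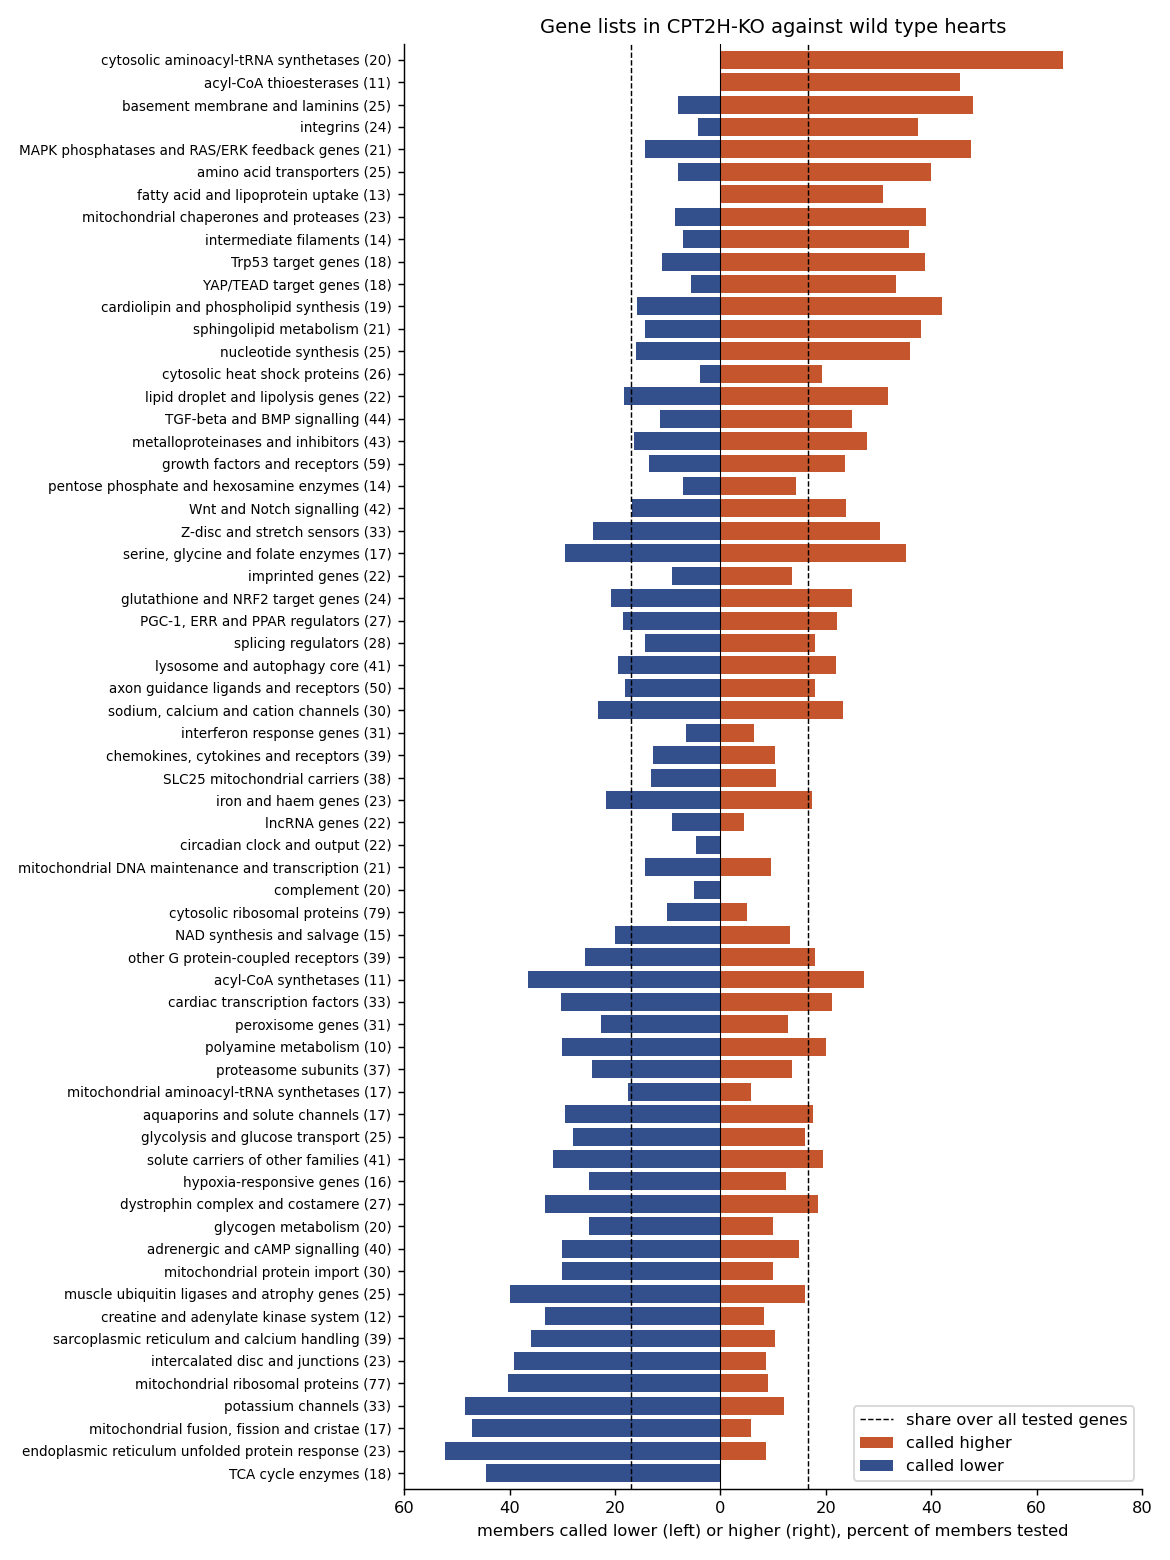
Percent of tested members called higher (right, orange) or lower (left, blue) for each gene list with at least 10 tested members, cell type marker lists left out, number tested in brackets; dashed lines mark the shares over all tested genes (16.7% higher, 17% lower). Cytosolic aminoacyl-tRNA synthetases top the plot with 65% higher and 0% lower, and TCA cycle enzymes close it with 0% higher and 44.4% lower.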

How the data were processed

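Raw gene counts of 10 mouse heart libraries, 5 wild type and 5 CPT2H-KO, were taken from the deposited table. The titles, which call the samples biological replicates, gave the groups. RNA was isolated with the PureLink kit and DNase and Ribo-Zero was used with the TruSeq kit for stranded libraries, per the labels' protocols. The submitters' processing notes name bcl2fastq, HISAT2, DESeq2 1.42.0 and mm10. Neither the labels nor the files name the counting program, the annotation or the strand setting, so reads of a gene and an antisense partner cannot be told apart. Rows of the deposited counts sum to at least 151, and 20 symbols had been turned into dates and 5 were repeated.

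From these counts, edgeR 4.0.16 in R 4.3.3 tested 14123 of 14138 genes (filterByExpr, TMM, quasi-likelihood F test, Benjamini-Hochberg threshold of 0.05, 5 libraries a group). Each log2 fold change was divided by the square root of F to give its SE. Gaps between groups used log2 of CPM + 0.1. Positions and chromosomes came from the GRCm38 annotation, and promoter sequences from RefSeq. A test on simulated data drawn from these libraries (14133 genes) recovered 23.9%, 76.1% and 93.9% of genes changed by 0.5, 1 and 2 on the log2 scale and called 11 unchanged genes. Only 67, 67 and 66 genes were changed at these levels. Since 33.7% of genes were called in the data, these rates do not carry over to the comparison itself. No pair of replicates agreed within sampling noise. The lowest chi-square per degree of freedom of a pair, near 1 under sampling noise alone, was 10.7.

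Alternatives were DESeq2 size factors, library totals as the only scaling, mitochondrially encoded genes left out, no low-count filter, DESeq2, limma-voom 3.58.1, an atrial covariate, a sex term, a replicate block, each library left out and an offset of 0.5 CPM. The members and lists were chosen with earlier results of these data known. The genes named were Cpt2, the 15 called genes each way with the widest gap whose average log2 CPM was 1 or more, the 10 each way with the largest difference in CPM without overlap, the 10 overlapping genes with the largest fold change, the 5 steadiest genes whose average log2 CPM was 5 or more within 0.1 of no change, and up to 6 members of each list by smallest p. Predicted genes, date-like symbols, Y-linked genes and Xist were left out of these rankings, and some genes that these rules name are not reported here. Lists are described by counts and medians without a test.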

Additional observations from a re-analysis of the deposited data

Results flagged for a closer look

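Dixon's test for a sample far from the rest of its group (critical value 0.71 for 5 samples) marked 28 of 520 groups of 5 values examined over the genes named, which is 5.38%, and chance marks about 1 in 20. CPT2H-KO replicate 1 was the distant library in 17 of them. It was above the other 4 CPT2H-KO hearts for Ak4 (12.3 CPM, next 7.51), Fstl4 (25.2 CPM, next 11.9), Lonp1 (122 CPM, next 83.1), Ltbp3 (38.3 CPM, next 21.6), Psmd11 (39.3 CPM, next 30.9), Slc44a2 (32.8 CPM, next 21.1), Synpo (69.9 CPM, next 52.5) and Vars (28.6 CPM, next 22.8). It was below them for Actc1 (2203 CPM, next 2868), Apool (10.8 CPM, next 13.8), Cdh4 (7.75 CPM, next 17.3), Cpt2 (30.4 CPM, next 42.0), Gpam (160.2 CPM, next 201), Irx2 (0.316 CPM, next 0.691), Mtfp1 (14.1 CPM, next 25.3), Pln (757 CPM, next 1029.6) and Trpv2 (2.23 CPM, next 3.40). The edgeR calls of these 17 genes were the same without it.

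CPT2H-KO replicate 2 was below the rest of its group for Atp5a1 (1298 CPM, next 1475). CPT2H-KO replicate 3 was above the rest of its group for Myl2 (1973 CPM, next 1802). CPT2H-KO replicate 5 was above the rest of its group for Chac1 (13.8 CPM, next 5.75) and Phkg1 (2.44 CPM, next 0.671). Wild type replicate 1 was above the rest of its group for Nppa (614 CPM, next 179.7). Wild type replicate 1 was below the rest of its group for Cyr61 (10.4 CPM, next 16.5). Wild type replicate 2 was above the rest of its group for Rn7s1 (601 CPM, next 77.2). Wild type replicate 3 was above the rest of its group for Mars (20.8 CPM, next 19.4). Wild type replicate 4 was above the rest of its group for Mrgprh (3.72 CPM, next 3.25). Wild type replicate 5 was above the rest of its group for Slc38a2 (132 CPM, next 96.9). Wild type replicate 5 was below the rest of its group for G0s2 (7.95 CPM, next 13.2).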

How the results depend on the processing

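Library totals in place of TMM gave 827 genes higher and 4832 lower, around a median log2 fold change of -0.27. Of the genes called with TMM, 3225 were also called there and 171 changed sign. The atrial covariate gave 3103 called genes, 1485 of them lower, and 2718 of the genes called without it (57.1%). This covariate went partly with the group, so atrial content and genotype cannot be told apart in these counts. Calls numbered 4717 with DESeq2 size factors, 4697 without mitochondrially encoded genes, 4760 without the low-count filter, 5401 with DESeq2, 4859 with limma-voom and 4248 with the sex term. The replicate block gave 4179 calls, of which 3932 were among the 4758 without it (82.6%). Whether replicate numbers pair the samples could not be settled, since a check of it rests on 5 correlations. Correlations of same-numbered deviations ran from -0.087 to 0.230, and 2 of 5 were over 0.1. Of the wild type libraries, 2 correlated best with their own number. Leaving out each library gave 3682 to 4787 calls, 1837 to 2372 higher and 1824 to 2428 lower, 3660 to 4410 genes without overlap, and 182 to 245 with a gap of at least 1. An offset of 0.5 CPM left 117 genes with such a gap. The value of Ckap5 reversed to 0.00295 and that of Myl4 to 0.28 with the atrial covariate, and those of Dpp8 and Snrnp200 to -0.24 and -0.22 with library totals. The causes were not tested. Of 260 genes examined, 236 kept their call under each alternative. Most of them were picked from these data for wide gaps, large differences or small p. Their share does not carry over to all called genes, of which the atrial covariate kept 57.1%. Intervals between groups rest on 5 libraries each, and genes near 0 CPM carry the largest counting error.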
